A study of Schizosaccharomyces pombe with 16 samples.

Results

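Polysome fractions and total mRNA of eIF2α.S52A cells at 0 h were compared to see which mRNAs and which RNA classes stood higher, lower or near 0 in polysomes. The comparison was defined by the labels and used 4 of the 16 libraries of the series, 2 of polysomal RNA and 2 of total RNA. The cells were fission yeast, Schizosaccharomyces pombe, in which the serine of eIF2α that the eIF2 kinases phosphorylate was replaced with alanine. They had grown in rich YES medium and were taken in exponential phase, the 0 h point. The other groups used here were eIF2α.S52A cells after 6 h more of growth, at the early entry into stationary phase, and WT cells at 0 h, each with 2 polysome and 2 total libraries. The study's strain list gives the eIF2α.S52A strain a ura4 marker with the replaced eIF2α gene, and also the allele ura4-D18. Neither is listed for WT cells, so the 2 strains differ in more than the replaced serine. Each genotype was represented by 1 strain. In every group the labels mark replicate 1 as expA and replicate 2 as expB, read here as 2 experiments shared by all groups.

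An mRNA in active translation carries several ribosomes, and such polysomes sediment below single ribosomes in a sucrose gradient, so the ratio of an mRNA in polysomes to total mRNA is read as its translation efficiency (TE). eIF2 brings the initiator tRNA to the small ribosomal subunit, and phosphorylation of its α subunit by Gcn2, Hri1 or Hri2 lowers the initiation rate in stressed or starved cells. In eIF2α.S52A cells this control is missing, and at 0 h the cells were growing with food in excess. A short coding region has room for few ribosomes, and an AUG in the 5′-leader, upstream of the coding region, can draw scanning ribosomes away from the main start codon.

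The polysome libraries held 11279417 and 15999798 counts and the total libraries 11460505 and 15615627 counts. The 100 genes with the most counts took 56.6% and 54.2% of the polysome libraries against 34.4% and 31.4% of the total libraries. Values below are CPM, counts set relative to a library size scaled by the trimmed mean of M-values (TMM), and log2 ratios are polysomes over total with their standard error (SE) from edgeR's quasi-likelihood test, with Benjamini-Hochberg adjustment of p over all 6170 genes fitted. TMM places the middle gene near a ratio of 0 (median -0.05), so higher and lower mean relative to the other mRNAs, and a shift shared by all mRNAs was not measured. Scaled by library totals alone the median of all genes was -1.62, and by totals without ribosomal protein genes -0.93. The share of mRNA that entered polysomes cannot be told apart from the amount of RNA recovered per cell in such libraries. No gene identifies a polysome library by itself. The mitochondrially encoded RNAs, whose mRNAs ribosomes inside mitochondria translate, had 17 and 9 counts in all in the polysome libraries and 1695 and 391 in the total libraries. tif211 (SPAC3G9.09c), which encodes eIF2α, had 1856 and 1701 CPM in polysomes and 492 and 447 CPM in total mRNA, and ura4 had 694 and 594 CPM against 159 and 149 CPM. A replaced amino acid leaves the count of tif211 free, so tif211 does not check the strain label. The level of ura4 in WT cells is not given here, so ura4 was not used as a check either.

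At an adjusted p under 0.05, 1365 of 6170 genes (22.1%) were higher in polysomes and 1384 (22.4%) were lower, together 44.6%. Among the called genes 954 were higher and 995 lower by more than 2-fold, and 37 were higher and 90 lower by more than 8-fold. The called genes split into 195 higher and 4668 lower when the libraries were scaled by their totals alone, and into 445 and 3185 when the totals left out ribosomal protein genes. Across the 6170 genes the ratios of the 2 replicates had a Pearson's r of 0.836, as a description over genes that are not independent. Replicates lay farther apart in polysomes than in total mRNA, with a median absolute log2 difference of 0.344 against 0.157 over 5096 genes.

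Start sites of some of the genes at both ends of the range are shown first, because the bases before the start codon differed between the genes higher and lower in polysomes. Each run of 10 bases reads 5′ to 3′ in the RefSeq annotation of the assembly ASM294v3, and capitals mark the start codon. The first 3 mRNAs were higher in polysomes and the last 4 lower.
rpp203: agaaaaATGa
rpl42: caaaaaATGg
egd2: tccaaaATGt
imt2: gttaggATGg
adg2: tgagaaATGa
eti1: gttaatATGt
spt3: tgcggaATGa

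Counting the A of the start codon as position 1 with no position 0, an A stood at position -3 in 71.2% of 1238 leader-bearing mRNAs higher in polysomes and in 50.9% of 1084 that were lower, against 61.5% of all 4481. Among cytosolic ribosomal protein mRNAs it stood in 87.7% of 130. Without these the share was 69.3% of 1108 higher mRNAs. A pyrimidine at -3 was found in 15.3% of the higher and 31.2% of the lower mRNAs. The median log2 ratio was 0.18 for mRNAs with A at -3, -0.06 with G, -0.13 with C and -0.26 with T. The quartiles of all genes were -0.80 and 0.69, so the 4 medians lay close together beside that spread. These letters are a description and do not show which start codon was used.

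Messages for the translation machinery stood at the top. All 137 cytosolic ribosomal protein genes tested were higher in polysomes, with a median log2 ratio of 2.70 and a range of 1.30 to 4.01, against a median of -0.05 over all genes. In each of the 137 both polysome libraries exceeded both total libraries, which held for 35.3% of all genes tested. Together these genes took 53.6% and 53.4% of the counts in polysomes against 25.2% and 24.3% in total mRNA. In WT cells the shares were 46.5% and 48.0% of polysome counts against 23.6% and 24.9% of total counts. Scaled by library totals alone the median of the group was still above 0, at 1.12 with 112 called higher and 0 lower. Many of these proteins have paired genes of near-identical sequence, so reads could be split between copies and the value of a single copy is uncertain.

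**Figure D1:**
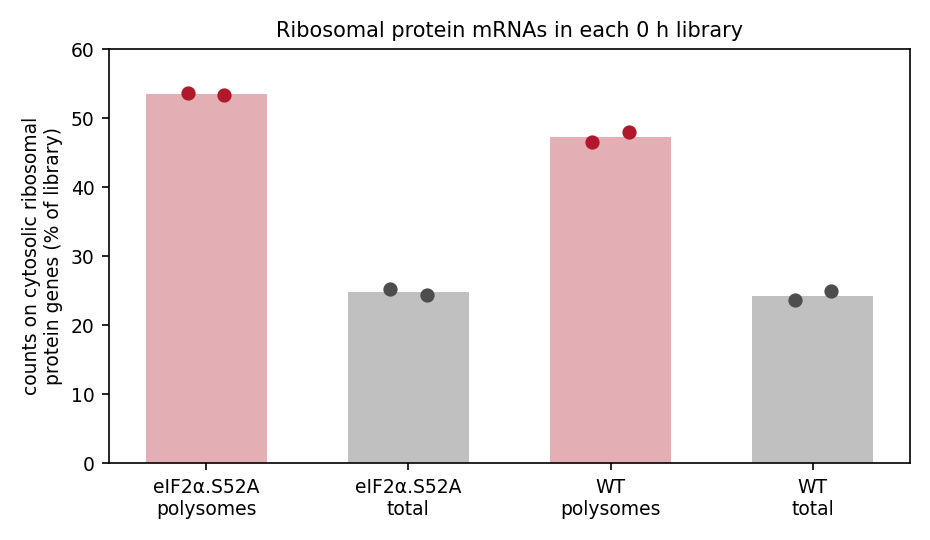
Share of counts on the 137 cytosolic ribosomal protein genes in each 0 h library, in percent of all counts, with a point for each of 2 replicates and a bar for their mean. The polysome points of eIF2α.S52A cells lie at 53.6% and 53.4%, and the total points at 25.2% and 24.3%.

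The acidic P proteins form the stalk of the large subunit. rpp203 (SPAC1071.08) had 6827 and 4196 CPM in polysomes against 351 and 334 CPM in total mRNA, a log2 ratio of 4.01 ± 0.41 (adjusted p = 1.89e-05). rpp103 followed with 8688 and 5270.2 CPM against 512 and 509 CPM (3.77 ± 0.34). Both genes were higher in every polysome library than in either total library, as in 35.3% of all genes tested. They were taken for the size of their ratios, so this adds little. In both the polysome level of replicate 1 was above that of replicate 2. Another member of the same stalk, rpp202, was higher by much less, with 3049 and 2402 CPM against 1106 and 954 CPM and a log2 ratio of 1.40 ± 0.24, and had -0.18 with library totals alone. Outside the stalk, rpl42 had 20022 and 12984 CPM in polysomes and 1559.7 and 1407 CPM in total mRNA (3.48 ± 0.32). The other ribosomal protein genes among the 12 largest ratios were rpp102 (3.58), rps1201 (3.36), rpl31 (3.36), rps1002 (3.36), rps23 (3.34), rpl3802 (3.33) and rpl3001 (3.30). Of the 37 genes over 8-fold higher, 31 encode cytosolic ribosomal proteins.

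Factors that work on the ribosome followed. All 9 elongation factor genes were higher, against 22.1% of all genes (median 1.79, and 0.18 with library totals alone). tef103, a copy of the EF-1α gene that delivers aminoacyl-tRNAs, had 26794 and 17613 CPM in polysomes against 4319 and 4499.5 CPM in total mRNA (2.33 ± 0.29). tef5 (EF-1β) had a ratio of 2.49 ± 0.33 and the eIF5A genes tif512 and tif51 had 2.49 ± 0.24 and 2.06 ± 0.40. The 3 EF-1α genes are near-identical in sequence, so the value of tef103 is uncertain as that of a single copy. egd2 encodes the α subunit of the nascent polypeptide-associated complex, which binds the chain as it leaves the ribosome. It was the largest ratio outside the ribosomal proteins in the coding genes named by rule, with 8900.2 and 6202 CPM in polysomes and 740.4 and 709.7 CPM in total mRNA (3.38 ± 0.31, adjusted p = 1.31e-05).

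Of 20 initiation factor genes outside eIF2 and eIF2B, 15 were higher (75%, against 22.1% of all genes) and 0 lower. Their median was 1.02, but -0.56 with library totals alone. sui1, which encodes eIF1 and guides start codon choice, had 2082 and 2504 CPM against 497 and 449 CPM (2.28 ± 0.22). tif45, the cap-binding eIF4E, had 966 and 831 CPM against 242 and 238 CPM (1.90 ± 0.24). In both genes the 2 polysome libraries lay above the 2 total libraries, as in 35.3% of all genes tested. eIF3i (sum1, 1.59 ± 0.26) and the other eIF4E (tif452, 1.53 ± 0.20, and -0.04 with totals alone) were the next largest.

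The eIF2 system itself split by role. Genes of eIF2 subunits were higher in polysomes: tif211 (α) with 1.92 ± 0.21 (adjusted p = 2.75e-05), tif212 (β) with 1.41 ± 0.31 and tif213 (γ) with 1.32 ± 0.23. With library totals alone these 3 ratios were 0.34, -0.16 and -0.28. Of the kinases that act on eIF2α, gcn2 had 33.3 and 16.9 CPM in polysomes and 50.4 and 53.98 CPM in total mRNA (-1.07 ± 0.29, adjusted p = 0.00889), and hri2 had 18.2 and 19.8 CPM against 38.5 and 38.6 CPM (-1.02 ± 0.31, adjusted p = 0.0178). Both kinases were lower in polysomes, but hri2 lost the call without any 1 of the 4 libraries (adjusted p between 0.0587 and 0.0863) and gcn2 without polysome replicate 2 (adjusted p = 0.076, edgeR). hri1 had 11.8 and 13.2 CPM against 28.3 and 17.6 CPM and did not pass the test (-0.87 ± 0.48, adjusted p = 0.162). fil1 encodes a GATA-type transcription factor of amino acid starvation, and its annotated leader holds 6 upstream AUGs. It had 137 and 112 CPM in polysomes and 145 and 140.2 CPM in total mRNA, a ratio of -0.19 ± 0.26 that did not pass the test (adjusted p = 0.581). Over the 11 genes of eIF2, eIF2B, their kinases and Fil1, 6 were higher (54.5%, against 22.1% of all genes) and 2 lower (18.2%, against 22.4%). Their median was 0.72, and -0.87 with library totals alone.

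**Figure D2:**
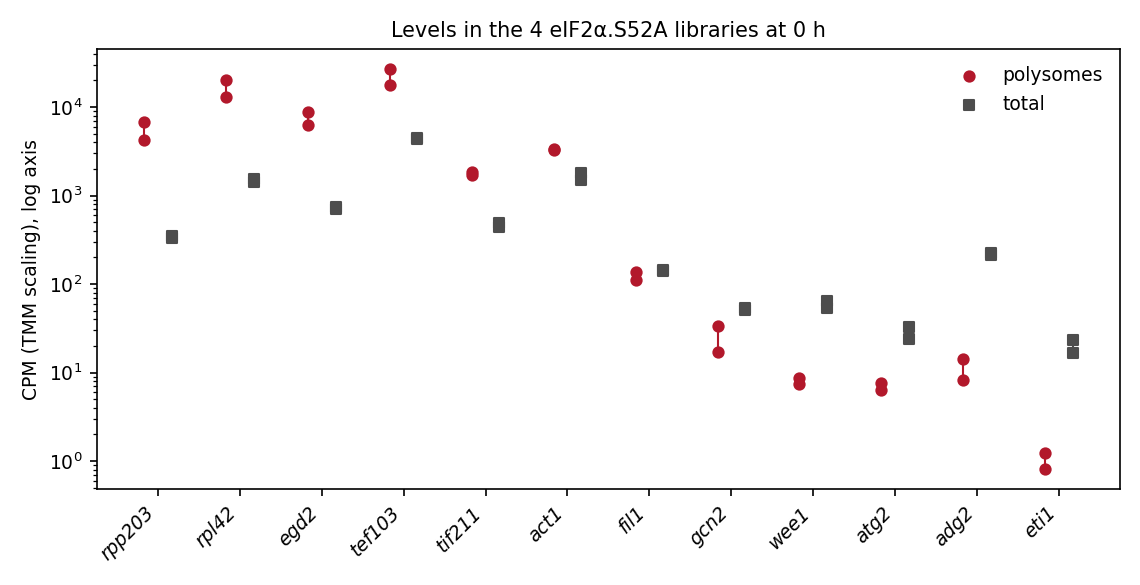
Level of 12 named genes in CPM with TMM scaling on a log axis, circles for the 2 polysome libraries and squares for the 2 total libraries of eIF2α.S52A cells at 0 h. Polysome circles of rpp203, rpl42, egd2, tef103, tif211 and act1 lie above the squares, those of fil1, gcn2, wee1, atg2, adg2 and eti1 lie below them, fil1 without a call, and act1 turned to -0.56 with library totals alone.

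Other housekeeping groups had medians above that of all genes, and none had a median above 0 with library totals alone. Their counts of called genes stand beside 22.1% higher and 22.4% lower among all genes, here and in the next paragraph. Of 36 proteasome genes 27 were higher and 0 lower (median 1.08, and -0.52 with totals alone), led by the α5 subunit gene pup2 (1.83 ± 0.27). Of 48 nuclear genes of the respiratory chain and ATP synthase 30 were higher and 2 lower (median 1.02, and -0.55). atp18, a small subunit of the ATP synthase, had 319 and 322 CPM in polysomes against 39.6 and 42.3 CPM in total mRNA (2.97 ± 0.31), and cox17, a copper chaperone of cytochrome c oxidase, had 192 and 131 CPM against 26.5 and 21.95 CPM (2.74 ± 0.47). These ratios are as large as those of many ribosomal protein genes. Of 61 mitochondrial ribosomal protein genes 35 were higher and 3 lower (median 0.81, and -0.76). mrpl22 was high (2.14 ± 0.21), while mrpl20 was low with 1.84 and 5.18 CPM against 20.97 and 16.5 CPM (-2.35 ± 0.70, adjusted p = 0.0167). Of 18 antioxidant enzyme genes 11 were higher and 0 lower (median 0.92, and -0.67), with glutaredoxin grx1 at 2.81 ± 0.67 and thioredoxin trx1 at 2.60 ± 0.56. Of 11 histone genes 7 were higher and 0 lower (median 1.08, and -0.48). hht2 (histone H3) had 1122 and 1778 CPM against 467 and 476 CPM (1.62 ± 0.33). Histone genes have near-identical copies, and their values are uncertain for that reason.

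Ribosome biogenesis factors, which assemble ribosomes in the nucleolus, had 46 of 113 genes higher and 1 lower (median 0.68, and -0.90 with totals alone), with nop52 at 2.04 ± 0.34. Of 36 heat shock proteins and chaperones 13 were higher and 1 lower (median 0.71, and -0.87), with the chaperonin subunits cct4 (1.54, and -0.07 with totals alone) and cct1 (1.33, and -0.26) among them. Amino acid biosynthesis had 28 of 68 genes higher and 2 lower (median 0.58, and -1.01). gln1, the glutamine synthetase, had 3400.0 and 1282 CPM against 360.1 and 260.0 CPM (2.92 ± 0.50), and his5 of the histidine pathway had 836 and 626 CPM against 154 and 155 CPM (2.24 ± 0.28). The polysome level of gln1 differed widely between replicates but lay above both total libraries in each, as in 35.3% of all genes tested. Of 19 glycolysis and fermentation genes 5 (26.3%, near the 22.1% of all genes) were higher and 0 lower (median 0.71, and -0.86), among them gpm1 (phosphoglycerate mutase, 1.99 ± 0.41), eno101 (enolase, 1.90 ± 0.53) and fba1 (aldolase, 1.84 ± 0.46). As a share of all counts this group took 7.25% and 5.61% of polysomes and 9.04% and 6.53% of total mRNA. For RNA polymerase subunits 13 of 31 were higher and 1 lower (median 0.45, and -1.12). That 1 was rpb1, the large subunit of RNA polymerase II, with 110.1 and 86.8 CPM against 320.2 and 307 CPM (-1.67 ± 0.20). The tricarboxylic acid cycle had 4 of 15 genes (26.7%) higher and 0 lower (median 0.45, and -1.12), a share near the 22.1% of all genes.

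The next 2 lists, like several others here, had genes called in both directions. Aminoacyl-tRNA ligases had 14 of 36 higher (38.9%) and 5 lower (13.9%), against 22.1% and 22.4% of all genes. Their median was 0.30, and -1.28 with totals alone. The cytoplasmic tyrosine ligase yrs1 was higher (1.42 ± 0.22, and -0.17 with totals alone), and the ligases with the largest negative ratios were mitochondrial ones, SPCC576.06c for tyrosine (-1.67 ± 0.34), vrs2 for valine (-1.48 ± 0.31) and SPAC4G8.09 for leucine (-1.36 ± 0.15). Genes of protein entry into the endoplasmic reticulum (ER), folding and glycosylation had 17 of 54 higher (31.5%) and 11 lower (20.4%). This share of lower genes is near the 22.4% of all genes. The median was 0.04, near the -0.05 of all genes, and -1.51 with totals alone. The translocon subunits sbh1 (957 and 766 CPM against 136 and 109.9 CPM, 2.81 ± 0.21) and sss1 (2.51 ± 0.20) and the signal recognition particle gene srp14 (2.60 ± 0.19) were high. spc2, a subunit of the signal peptidase that trims the proteins entering there, was low (-2.78 ± 0.95), but lost the call when any 1 of the 4 libraries was left out (adjusted p between 0.0595 and 0.142, edgeR). Of 8 hexose transporter genes 0 were called in either direction (median -0.06).

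**Figure D3:**
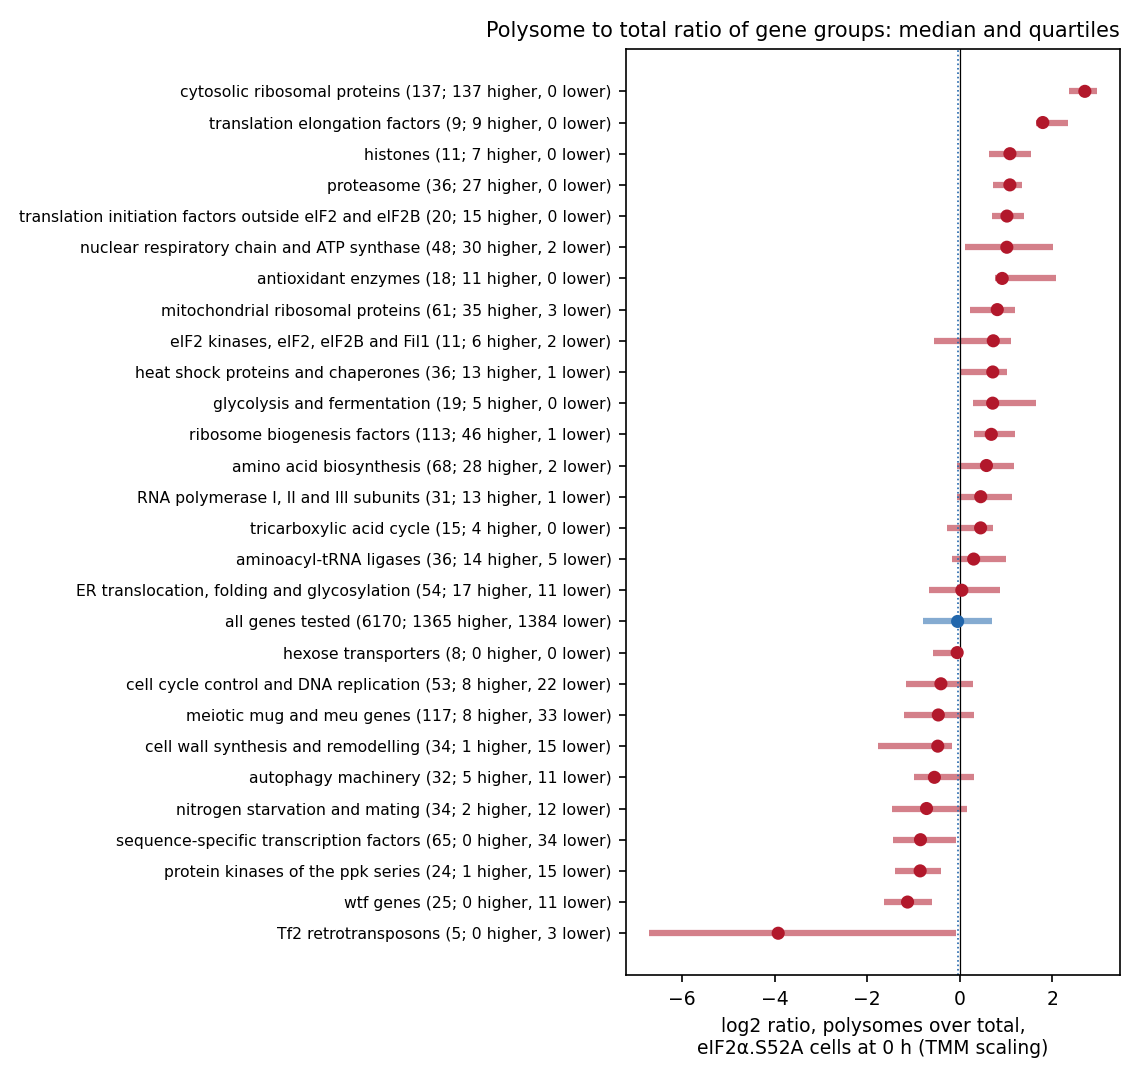
Median (point) and quartiles (bar) of the log2 ratio of polysomes over total, with TMM scaling, for each gene group and for all 6170 genes tested in blue, with the dotted line at their median. Cytosolic ribosomal proteins and elongation factors lie far to the right, and these 2 groups alone kept a median above 0 with library totals alone, where the median of all genes was -1.62.

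The genes of the smallest proteins went both ways. Of 25 genes of up to 60 codons 12 were higher (48.0%, against 22.1% of all genes) and 3 lower (12%, against 22.4%). Their median was 1.33, and -0.25 with library totals alone. The genes of this paragraph were chosen after their values were seen. rpl4101 and rpl4102 encode L41, the shortest protein of the ribosome, in 25 codons each. rpl4101 had 4483 and 3399 CPM in polysomes against 1106 and 712 CPM in total mRNA (2.12 ± 0.31), and rpl4102 had 1075 and 1090.3 CPM against 354 and 224 CPM (1.90 ± 0.28). tom7, a subunit of the mitochondrial import channel, had 582 and 497 CPM against 116 and 103 CPM (2.30 ± 0.18). In all 3 genes both polysome libraries lay above both total libraries, as in 35.3% of all genes tested. The choice of these genes after their values were seen leaves this little weight. ost4 encodes a membrane subunit of the oligosaccharyltransferase in 32 codons and went the other way, with 2.25 and 6.65 CPM in polysomes and 27.5 and 23.8 CPM in total mRNA (-2.46 ± 0.45, adjusted p = 0.000973). The coding regions of rpl4101 and ost4, from the same annotation, show how short a message was found high and another low. Capitals mark the start codon.
rpl4101: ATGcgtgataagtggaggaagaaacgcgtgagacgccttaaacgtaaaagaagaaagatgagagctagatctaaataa
ost4: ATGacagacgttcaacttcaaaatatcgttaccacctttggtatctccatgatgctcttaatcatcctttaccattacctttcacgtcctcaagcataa

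The rpl4101 region has 78 bases and that of ost4 99 bases with the stop codon. In WT cells ost4 had a ratio of -0.45. The difference between the strains was -2.02 ± 0.61 with an unadjusted p of 0.00595 and an adjusted p of 0.9999, so it did not pass the test.

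Genes of regulators were among the lists with medians well below that of all genes, though not the lowest of them. Of 65 sequence-specific transcription factor genes 34 were lower and 0 higher (52.3% against 22.4% of all genes, median -0.85). mei4, a forkhead factor of meiosis, had 0.817 and 0.986 CPM in polysomes and 14.9 and 13.7 CPM in total mRNA (-3.95 ± 0.42, adjusted p = 2.43e-05). pho7, the factor of phosphate starvation, had 3.27 and 7.39 CPM against 40.4 and 41.7 CPM (-2.89 ± 0.43). rsv2, a zinc finger factor of stress and spores, had 4.49 and 3.697 CPM against 41.9 and 16.1 CPM (-2.83 ± 0.60). In each of these genes both polysome libraries lay below both total libraries, as in 38.2% of all genes tested. The total libraries of rsv2 differed by more than 2-fold. cbf12 (-2.83 ± 0.70) and pcr1 (-1.61 ± 0.31), the partner of Atf1 in the stress response, were lower as well.

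Protein kinases of the ppk series had 15 of 24 lower (62.5%, against 22.4% of all genes) and 1 higher (median -0.86). ppk30 had 18.2 and 14.9 CPM against 79.9 and 57.9 CPM (-2.06 ± 0.38) and ppk1 15.9 and 5.79 CPM against 46.2 and 40.6 CPM (-2.03 ± 0.39). Over all 84 genes whose deposited description names a protein kinase, a group chosen after the values were seen, 49 were lower and 2 higher (median -0.92). wis1 and sty1, the MAP kinase kinase and the MAP kinase of the stress pathway, were not among the lower ones. wis1 was higher, with 143 and 113 CPM against 59.2 and 69.6 CPM (0.99 ± 0.27, adjusted p = 0.0109), but at -0.61 with library totals alone. sty1 had 174 and 221 CPM against 203 and 192 CPM and did not pass the test (0.00 ± 0.20, adjusted p = 0.993). The kinase sck2 was lower (-1.29 ± 0.22), as were git5, the G protein β subunit of glucose sensing (-0.95 ± 0.34), and cdc2, the cyclin-dependent kinase of the cell cycle (-0.87 ± 0.26). The call of git5 was lost when any library but polysome replicate 2 was left out (adjusted p between 0.0583 and 0.221), and that of cdc2 without polysome replicate 1 or total replicate 2 (adjusted p = 0.129 and 0.0971, edgeR).

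In the group of cell cycle control and DNA replication 22 of 53 genes were lower (41.5%, against 22.4% of all genes). There 8 were higher (15.1%, against 22.1%), and the median was -0.41. wee1, the kinase that delays mitosis, had 8.58 and 7.39 CPM in polysomes against 65.1 and 53.03 CPM in total mRNA (-2.89 ± 0.29, adjusted p = 1.8e-05). cdc25, the phosphatase that opposes it, had 15.3 and 14.9 CPM against 59.2 and 44.3 CPM (-1.77 ± 0.26). Both sides of this switch were thus lower, wee1 by more. mik1, a second inhibitory kinase, had a ratio of -1.97 ± 0.40 and 5 upstream AUGs in its leader. Cell wall synthesis and remodelling had 15 of 34 lower (44.1%, against 22.4% of all genes) and 1 higher (median -0.48). adg2, a conserved fungal gene of this list, had 8.17 and 14.05 CPM against 211 and 223 CPM (-4.26 ± 0.45, adjusted p = 2.44e-05), and bgs3, a subunit of glucan synthase, had 14.9 and 21.3 CPM against 126 and 139 CPM (-2.86 ± 0.28).

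Nitrogen starvation and mating genes had 12 of 34 lower (35.3%, against 22.4% of all genes) and 2 higher (median -0.72). fus1, the formin of cell fusion, had 2.86 and 2.83 CPM against 22.7 and 24.3 CPM (-3.04 ± 0.24), and its leader holds 8 upstream AUGs. Of 117 meiotic mug and meu genes 33 (28.2%, against 22.4% of all genes) were lower and 8 higher (median -0.47), with mug176 at -3.12 ± 0.73 and mug45 at -3.05 ± 0.55. wtf genes, a repeated family of meiotic drivers with similar copies, had 11 of 25 lower (44%, against 22.4% of all genes) and 0 higher. Their median was -1.13, and -1.04 with genes at 0 in both polysome libraries set to 3 counts. For the Tf2 retrotransposons, near-identical copies whose reads may be split or lost, 3 of 5 tested were lower on few counts. Tf2-11 had 0 and 0 counts in polysomes and 18 and 21 in total mRNA, and the fitted ratio of such a gene is no bound.

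Autophagy genes, which the study followed for their part in ageing, were called in both directions. Of 32 genes 11 were lower (34.4%, against 22.4% of all genes) and 5 higher (15.6%, against 22.1%), with a median of -0.55. atg2, of the lipid transfer step of membrane growth, had 7.55 and 6.41 CPM in polysomes and 33 and 24.2 CPM in total mRNA (-2.04 ± 0.25). atg38, of the phosphatidylinositol kinase complex, had 4.08 and 12.4 CPM against 80.8 and 60.5 CPM (-3.04 ± 0.58). atg12, a ubiquitin-like conjugate, was the reverse, with 27.6 and 32.8 CPM against 7.82 and 8.82 CPM (1.86 ± 0.20), and kept a ratio of 0.28 with library totals alone. atg8, the conjugate that marks autophagosomes, had 39.8 and 49.05 CPM against 39.4 and 34.4 CPM (0.27 ± 0.31, adjusted p = 0.511), atg7, the enzyme that activates both conjugates, 32.1 and 26.4 CPM against 31.02 and 32.2 CPM (-0.12 ± 0.30, adjusted p = 0.776), and atg1, the starting kinase, 29.6 and 25.02 CPM against 44.2 and 36.2 CPM (-0.56 ± 0.22, adjusted p = 0.0516). None of these 3 passed the test, though with the replicate block atg1 did (-0.55, adjusted p = 0.00741, edgeR). act1 (actin) was higher, with 3273 and 3337 CPM against 1793 and 1496 CPM (1.01 ± 0.21), but at -0.56 with library totals alone.

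The 12 largest negative ratios among genes of mean log2 CPM over 2 came from single genes of many roles. imt2, a mannosyltransferase of sphingolipids, had 0.817 and 1.602 CPM in polysomes and 49.3 and 10.8 CPM in total mRNA (-4.54 ± 1.12), with total libraries that differed from each other by more than 4-fold. eti1 had 0.817 and 1.23 CPM against 23.1 and 16.7 CPM (-4.22 ± 0.56), and spt3, of the SAGA transcription complex, 0.613 and 2.09 CPM against 24.98 and 19.5 CPM (-3.91 ± 0.69). In each of the 3 both polysome libraries lay below both total libraries, as in 38.2% of all genes tested. These genes were taken for the size of their ratios, so this adds little. clg1, a predicted cyclin, had 4.900 and 9.12 CPM against 94.3 and 77.9 CPM (-3.58 ± 0.57), and clp1, the Cdc14-type phosphatase of mitotic exit, 3.27 and 2.96 CPM against 35.95 and 23.8 CPM (-3.27 ± 0.42). The others of this set were bro1 (-3.46), fhn1 of the plasma membrane (-3.36), the topoisomerase top3 (-3.31), tap42 of TOR signalling (-3.27), the predicted GTPase-activating protein cnt6 (-3.19) and the antisense RNA crp79-antisense-1 (-3.26). With library totals alone the 12 ratios lay between -6.04 and -4.73. That scaling lowered ratios throughout (median of all genes -1.62), so this outcome was fixed in advance and is no check.

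Coding length ordered the ratios. The median was 0.94 for the 213 genes of up to 100 codons, 0.87 for 788 of over 100 to 200, 0.36 for 1635 of over 200 to 400, -0.27 for 1706 of over 400 to 800 and -0.68 for 648 of over 800 codons. In the shortest class 113 genes (53.1%) were higher and 21 (9.86%) lower, and in the longest 15 (2.31%) were higher and 339 (52.3%) lower. Among all genes 22.1% were higher and 22.4% lower. Without ribosomal protein genes the medians of the shorter 3 classes were 0.77, 0.73 and 0.33. Across 4990 genes Spearman's rho between the ratio and codons was -0.473, a description over genes of the same 4 libraries.

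Abundance moved with the ratio too. Genes were ranked into 5 bins of equal size by the CPM of WT total libraries per kilobase of transcript, which do not enter the ratio itself. The median ratio was -0.70 in the lowest bin, -0.43, -0.12 and 0.33 in the next 3 and 1.09 in the highest. Spearman's rho was 0.535 over the 4990 genes. Within the highest bin the median still ran from 2.01 in genes of up to 100 codons to 0.23 in those of over 800 codons, and within the lowest from -0.20 to -1.03. By intron number the medians were -0.06 for genes without one, 0.19 for genes with 1 and 0.06 for genes with 2 or more. The part of length and abundance in the ratios of the groups above was not tested.

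Genes with upstream AUGs in the annotated leader had lower median ratios. The median was 0.33 for 2866 genes with 0 upstream AUGs, -0.27 for 847 genes with 1 and -0.53 for 788 genes with 2 or more, and 35.4%, 17.2% and 10.8% of these were higher. The classes were also set side by side within each length class, and the order of the 3 medians was the same in all 5. In genes of over 100 to 200 codons the medians were 1.20, 0.54 and 0.11, and in genes of over 800 codons -0.43, -0.75 and -0.95. Across genes with a leader Spearman's rho with the ratio was -0.324 for upstream AUGs and -0.285 for leader length. The part of leader length in these medians was not tested. Among the 133 ribosomal protein genes with a leader only rpl701 had an upstream AUG, and its ratio was 2.09 ± 0.37. ppk33, with 29 annotated upstream AUGs, had 6.13 and 4.07 CPM in polysomes and 22.02 and 13.2 CPM in total mRNA (-1.81 ± 0.36). Low ratios were found without upstream AUGs as well. Of the genes with the largest negative ratios, imt2, adg2, clg1 and bro1 had 0 in the annotated leader, and eti1 and spt3 had 1 each.

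**Figure D4:**
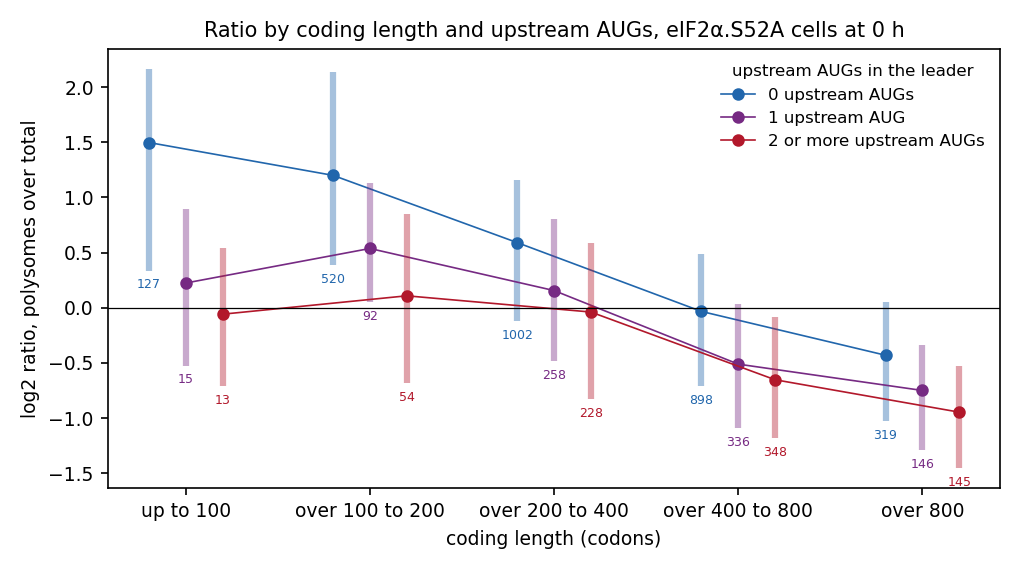
Median (point) and quartiles (bar) of the log2 ratio of polysomes over total by coding length in codons, for genes with 0, 1 or 2 or more upstream AUGs in the leader, with the number of genes under each bar. The median falls with length after 200 codons in each line, and the line of genes with 0 upstream AUGs lies above the others, at 1.497 in genes of up to 100 codons.

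Non-coding RNAs took a smaller share of polysomes than of total mRNA. Protein-coding genes took 99.7% of the counts in both polysome libraries against 99.0% in both total libraries. Antisense RNAs took 0.150% and 0.169% of polysomes against 0.574% and 0.638% of total mRNA, and intergenic RNAs 0.0644% and 0.0742% against 0.250% and 0.257%. Ribosomal protein mRNAs took a larger part of the polysome libraries, which lowers the share left to all other RNAs. On the TMM scale, of 1074 long non-coding RNAs tested 162 (15.1%, against 22.4% of all genes) were lower and 43 higher. Fewer were thus called lower than among genes in general, though the median was -0.30, 0.26 under that of all genes. A share of calls also depends on how many counts the members have, and the part of this was not tested.

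Intergenic RNAs had a lower median than antisense RNAs, a difference given with no test. Of 368 intergenic RNAs 71 (19.3%) were lower and 7 higher (median -0.56), and of 632 antisense RNAs 82 (12.97%) were lower and 36 higher (median -0.18). Both shares of lower RNAs lie under the 22.4% of all genes, with the same limit from the counts of the members. The annotation marks 96 of the intergenic RNAs as a possible alternative UTR of a neighbour. Of these 32 were lower and 4 higher (median -1.02), against 39 lower and 3 higher of the other 272 (median -0.44). Of 96 antisense RNAs with the same mark 15 were lower and 11 higher (median 0.03). The other 536 antisense RNAs had 67 lower and 25 higher (median -0.21). Counting was by strand, which sets antisense reads apart from sense reads, but the share of reads given to the wrong strand was not measured. Of 618 antisense RNAs with a tested sense gene, those with more counts than the sense gene in total mRNA had 33 of 95 lower and 2 higher (median -0.64). Those with up to 1% of the sense counts had 2 of 92 lower and 6 higher (median 0.37). Spearman's rho between antisense and sense ratios was 0.12 over the 618 pairs.

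Single non-coding RNAs went both ways. meu26-antisense-1 (SPNCRNA.827) was among the 12 largest positive ratios, with 22.9 and 16.8 CPM in polysomes against 1.18 and 1.72 CPM in total mRNA (3.74 ± 0.35, adjusted p = 1.31e-05). WT cells gave 4.19 at 0 h. The annotation marks this RNA as a possible alternative UTR, so its reads may not come from a separate non-coding RNA. SPAC19B12.01-antisense-1 had 9.39 and 9.61 CPM against 1.91 and 1.59 CPM (2.44 ± 0.43). crp79-antisense-1 was the opposite, with 2.65 and 2.71 CPM against 26.6 and 25.01 CPM (-3.26 ± 0.43), as was SPNCRNA.1626, the antisense RNA with the most counts, with 65.3 and 26.99 CPM against 349 and 160.1 CPM (-2.47 ± 0.53). SPNCRNA.388 had 3.47 and 2.22 CPM against 26.4 and 22.9 CPM (-3.15 ± 0.32). prl1, a polyadenylated RNA of unknown function, had 2.25 and 2.46 CPM against 12.3 and 8.22 CPM (-2.11 ± 0.39). sme2, the meiRNA that captures the Mmi1 protein, had 1 and 3 counts against 20 and 26 counts (adjusted p = 0.0361). ter1, the telomerase RNA, had 8.78 and 6.04 CPM against 14.5 and 13.6 CPM (-0.94 ± 0.30, adjusted p = 0.0227), and rrk1, the RNA of RNase P, 22.9 and 10.5 CPM against 14 and 8.61 CPM with no call (0.55 ± 0.42, adjusted p = 0.314). The call of sme2 was lost when any 1 of the 4 libraries was left out (adjusted p between 0.0677 and 0.147) and that of ter1 when any but polysome replicate 1 was (adjusted p between 0.0638 and 0.16, edgeR). The libraries of rrk1 overlapped.

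**Figure D5:**
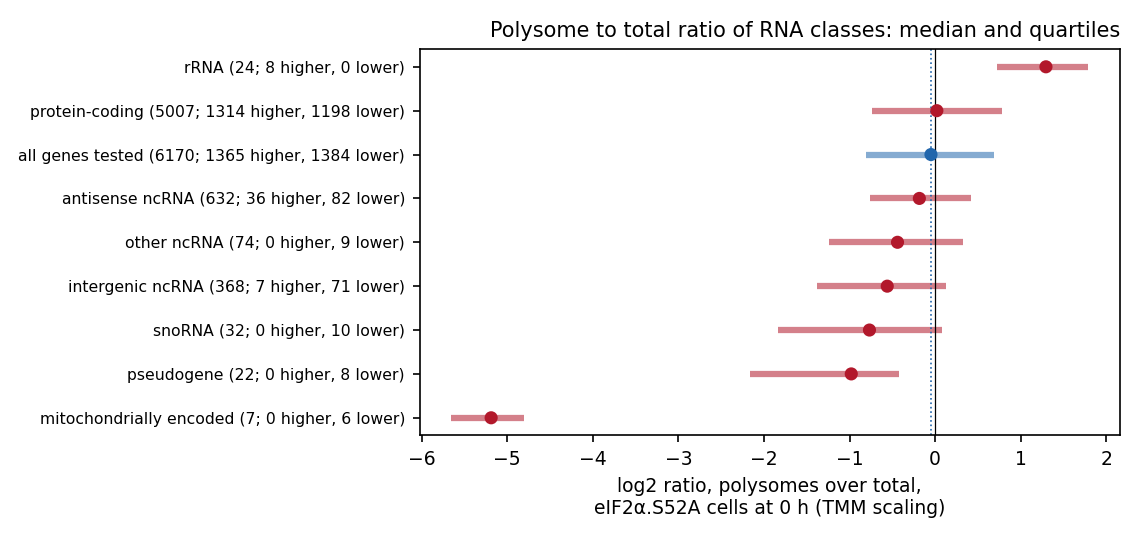
Median (point) and quartiles (bar) of the log2 ratio of polysomes over total, with TMM scaling, for RNA classes with at least 5 genes tested and for all 6170 genes in blue, the dotted line being their median. Mitochondrially encoded RNAs lie at -5.19, intergenic RNAs at -0.56 and rRNAs at 1.30, which was -0.30 with library totals alone.

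Small structural RNAs are not polyadenylated and gave few counts in libraries made from poly(A) RNA. Of 32 snoRNAs 10 were lower (31.25%, against 22.4% of all genes) and 0 higher (median -0.77). Among them snoR61 had 13.9 and 6.28 CPM against 35.6 and 34.6 CPM (-1.83 ± 0.53). The snRNAs had 8 and 8 counts in all in polysomes against 132 and 16 in total mRNA, so their level rested on 1 total library. The 17 5S rRNA genes tested, near-identical copies, had 8 higher and 0 lower (median 1.57, and -0.03 with library totals alone), while 0 of 5 other nuclear rRNA genes were called in either direction. As a share of counts rRNA took 0.0211% and 0.00512% of polysomes against 0.0980% and 0.0215% of total mRNA, and replicate 1 was the higher one in both fractions.

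Of the 7 mitochondrially encoded RNAs tested 6 were lower (85.7%, against 22.4% of all genes) and 0 higher. Their median was -5.19, and -5.05 when RNAs at 0 in both polysome libraries were set to 3 counts. cox1, a subunit of cytochrome c oxidase, had 1.23 and 0.616 CPM in polysomes and 26.6 and 4.35 CPM in total mRNA (-4.13 ± 1.08). SPMIT.06, a predicted endonuclease, had 6 and 2 counts against 705 and 178 counts (adjusted p = 0.00271). The total libraries themselves differed by a large factor, replicate 1 being the higher, yet both stood above both polysome libraries. In WT cells 1 of the 7 was called lower (median -2.35), and the class had 42 and 32 counts in polysomes against 526 and 481 in total mRNA.

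Few RNAs were absent from polysomes at this depth. Absence was read as at most 3 counts in both polysome libraries with at least 50 in both total libraries, and 8 of the 5264 RNAs with that many total counts met it. No RNA met the reverse, with at least 50 in both polysome libraries and at most 3 in both total libraries, of 4318 that could. mis6, which encodes a protein of the inner centromere, had 1 and 3 counts in polysomes and 150 and 238 in total mRNA. ted1, a predicted phosphatase gene with 4 upstream AUGs, had 2 and 0 against 158 and 223. Both RNAs had over 100 counts in each total library. The other coding genes were the DNAJ domain gene SPCC63.13 (1 and 3 counts against 92 and 62), mug24, an RNA-binding protein gene (0 and 3 against 59 and 79), and SPBC15D4.08c, which the annotation calls dubious (0 and 3 against 57 and 60). The 3 others were intergenic RNAs, each marked as a possible alternative UTR. SPNCRNA.511 had 0 and 1 counts against 86 and 92, SPNCRNA.1115 0 and 2 against 53 and 64 and SPNCRNA.995 2 and 3 against 76 and 91. Of these 8 RNAs 2 also had at most 3 counts in both WT polysome libraries, and 3 RNAs met the whole rule in WT cells. Such counts limit reads in these libraries and do not show that an RNA never enters polysomes.

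WT cells at 0 h, the comparison most like this one, called many of the same genes. There 1138 genes (18.4%) were higher and 1134 (18.4%) lower in polysomes, and 2063 genes were called in the same direction in both strains, 75.05% of those called in eIF2α.S52A cells and 90.8% of those called in WT cells. The overlap held 0 genes of opposite direction. The difference of the ratio between eIF2α.S52A and WT cells was tested as an interaction of fraction and strain, and 0 of 6170 genes passed edgeR's test, with 136 at an unadjusted p under 0.05. DESeq2 called 0 as well, with 178 at an unadjusted p under 0.05. The median SE of this difference was 0.41 on the log2 scale. With 2 replicates even a difference as large as that given above for ost4 did not pass the test. The 0 calls therefore do not show that the 2 strains had equal ratios. The group medians stood side by side without a test: cytosolic ribosomal proteins had 2.70 in eIF2α.S52A cells and 2.13 in WT cells, elongation factors 1.79 and 1.28, and transcription factors -0.85 and -0.63, while the medians of all genes were -0.05 in both strains.

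The genes with the smallest p-values for the difference are given as values, since all had an adjusted p of 0.9999. bqt3, of telomere bouquet formation, had a ratio of -1.57 ± 0.24 in eIF2α.S52A cells and -0.25 ± 0.23 in WT cells (difference -1.32 ± 0.33, unadjusted p = 0.00161). rsp1, of septum and microtubule organization, had -2.24 ± 0.23 against -1.18 ± 0.21 (difference -1.06 ± 0.31). mpc2, a mitochondrial pyruvate carrier subunit, had -2.22 ± 0.26 against -1.03 ± 0.24 (difference -1.19 ± 0.35). rps2802, a ribosomal protein gene, went the other way, with 2.16 ± 0.21 against 1.22 ± 0.20 (difference 0.94 ± 0.28).

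At 6 h, in the same strain, 1336 genes (21.7%) were higher and 1297 (21%) lower in polysomes. The difference of the ratio between 6 h and 0 h was called for 0 genes by edgeR, with 99 at an unadjusted p under 0.05, and for 3 genes by DESeq2, with 113 at an unadjusted p under 0.05. These 3 were ubi3, a fusion of ubiquitin with a ribosomal protein (ratio 2.83 at 0 h and 0.64 at 6 h, edgeR adjusted p = 0.152), rpp202 (1.40 at 0 h and -0.70 at 6 h, edgeR adjusted p = 0.152) and meu26-antisense-1 (3.74 at 0 h and 1.64 at 6 h, edgeR adjusted p = 0.9999). The median of ribosomal protein genes was 2.70 at 0 h and 2.22 at 6 h.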

How the data were processed

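Polysomal and total RNA of S. pombe was sequenced in 16 libraries, 2 replicates in each of 8 groups (eIF2α.S52A or WT, 0 h or 6 h, polysomes or total). The authors separated polysomes on sucrose gradients, made stranded libraries with an mRNA kit, aligned paired reads to ASM294v2 with STAR and counted reads per gene by strand with QoRTs, by their methods. QoRTs and DESeq2 were run by the authors at their defaults, QoRTs with its options for stranded read pairs. Versions of STAR, QoRTs and DESeq2 as run by the authors were not found in the methods or labels. The deposited values used are these raw counts, not normalized by the authors. The 16 columns of normalized values were not used. Counts without molecular identifiers are reads, not molecules, and the limits on absence cover counting error only.

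The table holds 7014 genes. In 44 rows the name and description carried the identifier of another gene, and names were assigned by that identifier, the values being taken to follow the row's own identifier. Coding length, introns and upstream AUGs came from RefSeq's annotation of ASM294v3, matched by locus tag (6846 genes), for 5106 of 5131 protein-coding genes a length and for 4510 a leader. No coordinates are given, since the builds differ.

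Genes were filtered with filterByExpr over the 8 groups (6170 kept), scaled by TMM and fitted in 1 model of 16 libraries with edgeR 4.0.16 (limma 3.58.1, R 4.3.3) by the quasi-likelihood test, adjusted by Benjamini-Hochberg and called at 0.05. The study used DESeq2, which was an alternative here (1.42.0). CPM used the TMM factors, and mean log2 CPM a prior count of 1. Groups of kinases by description were chosen after their values were seen. The fit was tested on simulated data. Replicate numbers 1 and 2 stand for expA and expB in the sample descriptions of all 8 groups, read as 2 experiments, and so pair the samples, and deviations of replicate 1 in polysomes and total mRNA of eIF2α.S52A cells had r = 0.327. Alternatives changed the test, scaling, filter, libraries fitted and replicate block, and left out each library in turn.

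Named are the 12 largest ratios in each direction (mean log2 CPM of at least 2, both replicates agreeing in sign), at most 4 genes from each of 30 lists, the 4 most abundant RNAs of each non-coding class, genes the paper names, the 8 smallest p of each interaction and absent RNAs. Others are said to be chosen after their values were seen. The comparison, lists and rules were chosen with earlier results of these data known, and 31 list symbols whose description was of another kind of gene were removed afterwards, so lists are described by counts and medians with no test of their own.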

Additional observations from a re-analysis of the deposited data

How the results depend on the processing

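Over the alternatives, 1405 of 1508 ratios of genes named in the text kept their direction and side of the threshold, 67 lost the call, 10 gained it and 26 changed sign. Scaling moved the counts most. With library totals alone 195 genes were higher and 4668 lower, against 1365 and 1384, and with totals without ribosomal protein genes 445 and 3185. The replicate block, which uses the pairing of the experiments, gave 1533 higher and 1627 lower and changed the call of no named gene but atg1, which became lower. Leaving out 1 library gave 960 to 1176 higher and 991 to 1202 lower. The difference between 6 h and 0 h had 3 lower genes with DESeq2.

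The median of long non-coding RNAs minus that of all genes was -0.26. It was -0.24 with library totals alone and with no filter, and -0.28 with the 1 CPM filter. It was -0.27 with the replicate block and with only the libraries compared, and between -0.36 and -0.21 without 1 library. Scaling shifts all genes nearly alike and largely cancels in this difference, so the value with library totals alone does not test the scaling. The same difference for ribosomal proteins was 2.75, and 2.62 to 2.87 without 1 library. Genes with 0 upstream AUGs exceeded those with 2 or more by 0.86, and by 0.80 without ribosomal protein genes. With a minimum of 20 total counts 38 RNAs were absent, with 100 counts 2, and with up to 10 polysome counts 55, against 8.

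List medians minus that of all genes, without 1 library, ran from -0.033 (without polysome replicate 2) to 0.17 for the ER group, from -0.29 to 0.28 (without total replicate 1) for hexose transporters, with 0.08 without polysome replicate 2, and from -2.14 to 0.59 (without total replicate 1) for functional non-coding RNAs. Genes that changed sign with library totals alone were rpp202 (-0.18), atg8 (-1.29), sty1 (-1.56), wis1 (-0.61), act1 (-0.56), rrk1 (-1.05), hsp9 (-0.80), cct1 (-0.26), cct4 (-0.067), tif212 (-0.16), tif213 (-0.28), tif452 (-0.042) and yrs1 (-0.17), and with totals without ribosomal protein genes atg8 (-0.60), sty1 (-0.87), rrk1 (-0.36) and hsp9 (-0.11). sty1 turned to -0.0069 with no filter and -0.046 with only the libraries compared. Without 1 library sty1 ran from -0.18 to 0.16, atg7 from -0.26 to 0.015, rrk1 from -0.11 to 1.02, hsp9 from -1.06 to 1.47 and ght5 from -3.23 to 2.18. The cause was not tested.

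Without 1 library these named genes lost the call in at least 1 case: hri2, sme2 and spc2 without any of the 4, git5 without any but polysome replicate 2 (adjusted p up to 0.221), ptc2 likewise (up to 0.183), ter1 without any but polysome replicate 1 (up to 0.16), cdc2, fba1 and eno101 without polysome replicate 1 or total replicate 2 (up to 0.13), wis1 and mrpl20 without polysome or total replicate 1 (up to 0.113), cox1 without polysome replicate 2 or total replicate 1 (up to 0.104), SPCC63.13 without either polysome library (up to 0.0552), gcn2, cbf12 and snoR61 without polysome replicate 2 (up to 0.12) and imt2 without total replicate 1 (0.0513). Absence is limited by depth, since RNAs under 50 total counts could not meet it.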

Other observations

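Some genes differed more between the 2 experiments than between polysomes and total mRNA, and were chosen after their values were seen. The hexose transporter gene ght5 had 656 and 62.8 CPM in polysomes (replicates 1 and 2) and 1103 and 79.1 CPM in total mRNA of eIF2α.S52A cells, and 1234 and 196 CPM against 1330.3 and 249.9 CPM in WT cells. hem13, of haem synthesis, had 2833 and 523 CPM in polysomes against 1989 and 370.1 CPM in total mRNA, and in WT cells 1884 and 272 CPM against 1495 and 219 CPM. In both genes the experiment of replicate 1 was several times higher in both fractions and both strains. The ratios of ght5 were -0.75 and -0.33 in the 2 experiments.

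In other genes only the polysome libraries differed. hsp9, a small heat shock protein gene, had 94.7 and 547 CPM in polysomes and 212 and 183 CPM in total mRNA, ratios of -1.16 and 1.58 in the 2 experiments, and WT cells had 78.1 and 512 CPM against 249 and 242 CPM. ptc2, a protein phosphatase gene of the stress pathway, had 3.47 and 16.3 CPM against 48.3 and 52.04 CPM, and 4.797 and 22.7 CPM against 42.9 and 52.1 CPM in WT cells. Total mRNA of both genes was close to the same in the 2 experiments, and replicate 2 was the higher one in polysomes of both strains. ptc2 was lower in polysomes in both experiments (-2.28 ± 0.79, adjusted p = 0.0329), and hsp9 did not pass the test (0.70 ± 0.84, adjusted p = 0.528). The part of the experiment in these values was not tested beyond the replicate block.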
